A study of Mus musculus with 20 samples.

Results

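The integrated stress response was described through 9 genes: Atf4, its related transcription factor Atf5, and 7 genes of the pathway that Atf4 drives, namely Ddit3, Ddit4, Trib3, Chac1, Sesn2, Asns and Psat1. They were chosen by name as genes of the Atf4 pathway, out of the 31053 genes of the count matrices, and all 9 were measured and passed the filter on low counts in every comparison. Their values are given for B, plasma, T and myeloid cells of each library. Single-cell RNA sequencing (scRNA-seq) had been run on unselected live cells from 13 mice, in 20 libraries. Eµ-PRMT5 mice carry human PRMT5, an arginine methyltransferase, and Eµ-TCL1 mice carry human TCL1, an oncogene. In both, a mouse VH promoter and the Eµ enhancer of the immunoglobulin heavy chain drive the human cDNA in B cells, and Eµ-PRMT5/TCL1 mice carry both transgenes. Spleens came from 5 mice with PRMT5, 4 with TCL1 and 4 with both, lymph nodes from 3 mice with TCL1 and 4 with both, and each node came from a mouse whose spleen was also sequenced. The labels give the strain as C57BL/6N and no ages. Tissues were taken when mice reached the criteria for removal, lymph nodes were sub-mandibular, and no mouse without a transgene was among these libraries. The title of Eµ-PRMT5 spleen 3 carries the number that the methods give to a founder animal. By Xist counts, 4 of the 5 Eµ-PRMT5 mice, 1 of the 4 Eµ-TCL1 mice and 3 of the 4 Eµ-PRMT5/TCL1 mice were female.

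In the integrated stress response, kinases that sense unfolded protein in the endoplasmic reticulum, lack of amino acids, lack of haem or double-stranded RNA phosphorylate the translation factor eIF2. Protein synthesis then slows, while the Atf4 mRNA is translated better, and the ATF4 protein turns on genes for amino acid synthesis and import, redox balance and, under lasting stress, cell death. Because ATF4 is set largely by translation, its mRNA count is not a measure of its protein. Plasma cells, which secrete antibody, are known for high activity of the unfolded protein response.

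ATF4 binds, as a dimer with C/EBP proteins, to the C/EBP-ATF response element, searched for here as TGATGNAA on either strand (TTNCATCA when read on the opposite strand). RefSeq promoter windows (GRCm38.p6) run from 250 bases before to 50 bases after each gene's start, and all 9 genes had an entry. The 9 genes had 11 windows, and 3 of these, 1 each of Chac1, Trib3 and Asns, held the motif, against 3.97% of 32851 windows of all genes. Counted by gene, 3 of 9 had it in any window, against 4.51% of 27025 genes. The stretches around these 3 matches are shown because they hold the letters searched for, with the motif in capitals, 5′ to 3′ along the strand of the gene.
Chac1: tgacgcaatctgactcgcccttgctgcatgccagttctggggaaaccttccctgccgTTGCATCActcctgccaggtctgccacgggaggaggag
Trib3: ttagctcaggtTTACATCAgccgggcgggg
Asns: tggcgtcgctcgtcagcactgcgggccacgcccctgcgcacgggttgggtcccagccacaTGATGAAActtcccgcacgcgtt
The Chac1 stretch lies at chr2:119350992-119351086 on the plus strand, and its match, on the opposite strand, ends 185 bases before the start. The Trib3 stretch lies at chr2:152344028-152344057 on the minus strand, with the match 14 bases after the RefSeq start, on the opposite strand. The Asns stretch lies at chr6:7693210-7693292 on the minus strand, and its match, on the strand of the gene, ends 15 bases before the start. A match is only a run of letters, and for the other 6 genes these letters were not in this window.

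Libraries held between 9348094 and 72440894 unique molecular identifiers (UMIs), each of which counts 1 captured RNA molecule. After cell calling and removal of doublets, 84231 cells were kept. Any pair of libraries shared at most 68 cell barcodes. Cells were assigned by raw counts of marker genes to B cells (38921), T cells (30444), myeloid cells (6213) and plasma cells (2339), and counts were summed per library and class. A class was used where it had at least 30 cells, which left all 20 libraries for B and T cells, 15 for myeloid cells and 13 for plasma cells. Levels are given as CPM, the UMIs of a gene relative to all UMIs of the class in that library. In spleens, the summed T cell markers had a median of 3251 CPM in T cells and 98.2 CPM in B cells, and the summed B cell markers 5590 CPM in B cells and 28.9 CPM in T cells. B cells of Eµ-PRMT5 spleen 4 stood apart, with B cell markers at 1177 CPM against 3861 to 6699 CPM in the other 12 spleens. Summed plasma cell markers had a median of 19749 CPM in plasma cells and 135 CPM in B cells, while B cell markers were still at 3140 CPM in plasma cells. Erythroid markers were at 8268 CPM in plasma cells of Eµ-TCL1 spleen 3 and at or under 31.6 CPM in those of the other 7 spleens. Eµ-PRMT5 spleen 4 had the most UMIs and the lowest share of T cells (1.39%), and 31.9% of its cells were myeloid, against at most 9.81% in the other spleens of its group. Since 3′ counting does not scale with transcript length in a known way, levels are compared between samples and not between genes. In a summed class, more cells with the RNA and more RNA per cell cannot be told apart.

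Atf4, Atf5 and Ddit3, the transcription factors, were counted in B cells of every library. Atf4 in B cells was at 820.5, 731, 639.6, 369 and 799.5 CPM in Eµ-PRMT5 spleens 1 to 5, at 391, 453, 303 and 452 CPM in Eµ-TCL1 spleens 1 to 4, and at 326, 346, 356 and 834 CPM in Eµ-PRMT5/TCL1 spleens 1 to 4. Of the Eµ-PRMT5 spleens, 4 lay above every Eµ-TCL1 spleen and spleen 4 lay among them, while of the Eµ-PRMT5/TCL1 spleens only spleen 4 stood above the Eµ-TCL1 range. Group means were 672 ± 184 CPM (SD, n = 5), 399.9 ± 70.6 CPM (n = 4) and 465.7 ± 246.1 CPM (n = 4). In lymph nodes, Atf4 in B cells was at 488, 481 and 567 CPM in Eµ-TCL1 nodes 1 to 3 and at 394, 585, 627 and 477 CPM in Eµ-PRMT5/TCL1 nodes 1 to 4, ranges that overlapped.

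Atf5, which like Atf4 is translated better when eIF2 is phosphorylated, had groups without overlap in B cells. None of its differences between genotypes was called in the main fits, given below. It was at 9.19, 10.6, 10.9, 41.1 and 30.9 CPM in Eµ-PRMT5 spleens, at 69.1, 85.0, 51.3 and 236 CPM in Eµ-TCL1 spleens, and at 27.8, 55.0, 24.8 and 26.6 CPM in Eµ-PRMT5/TCL1 spleens. Every Eµ-TCL1 spleen lay above every Eµ-PRMT5 spleen, and these groups did not overlap for 5.05% of all genes. Eµ-PRMT5/TCL1 spleen 2 alone of its group lay inside the Eµ-TCL1 range. In nodes, Eµ-TCL1 samples had 114, 160.0 and 173 CPM and Eµ-PRMT5/TCL1 samples 92.5, 28.8, 18.5 and 80.5 CPM. These groups had no overlap, which held for 6.57% of all genes. The nodes came from mice whose spleens are among those above.

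Ddit3 encodes CHOP, which promotes cell death under lasting stress. In B cells it varied least of the 9 genes by the ratio of the highest to the lowest spleen, and it was at 102, 115, 108, 69.0 and 90.9 CPM in Eµ-PRMT5 spleens, at 83.2, 84.7, 89.8 and 88.0 CPM in Eµ-TCL1 spleens and at 63.6, 71.3, 75.2 and 45.5 CPM in Eµ-PRMT5/TCL1 spleens. The Eµ-PRMT5/TCL1 spleens all lay below the Eµ-TCL1 spleens, and these groups did not overlap for 3.4% of all genes. The Eµ-PRMT5/TCL1 spleens overlapped the Eµ-PRMT5 spleens through Eµ-PRMT5 spleen 4.

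**Figure D1:**
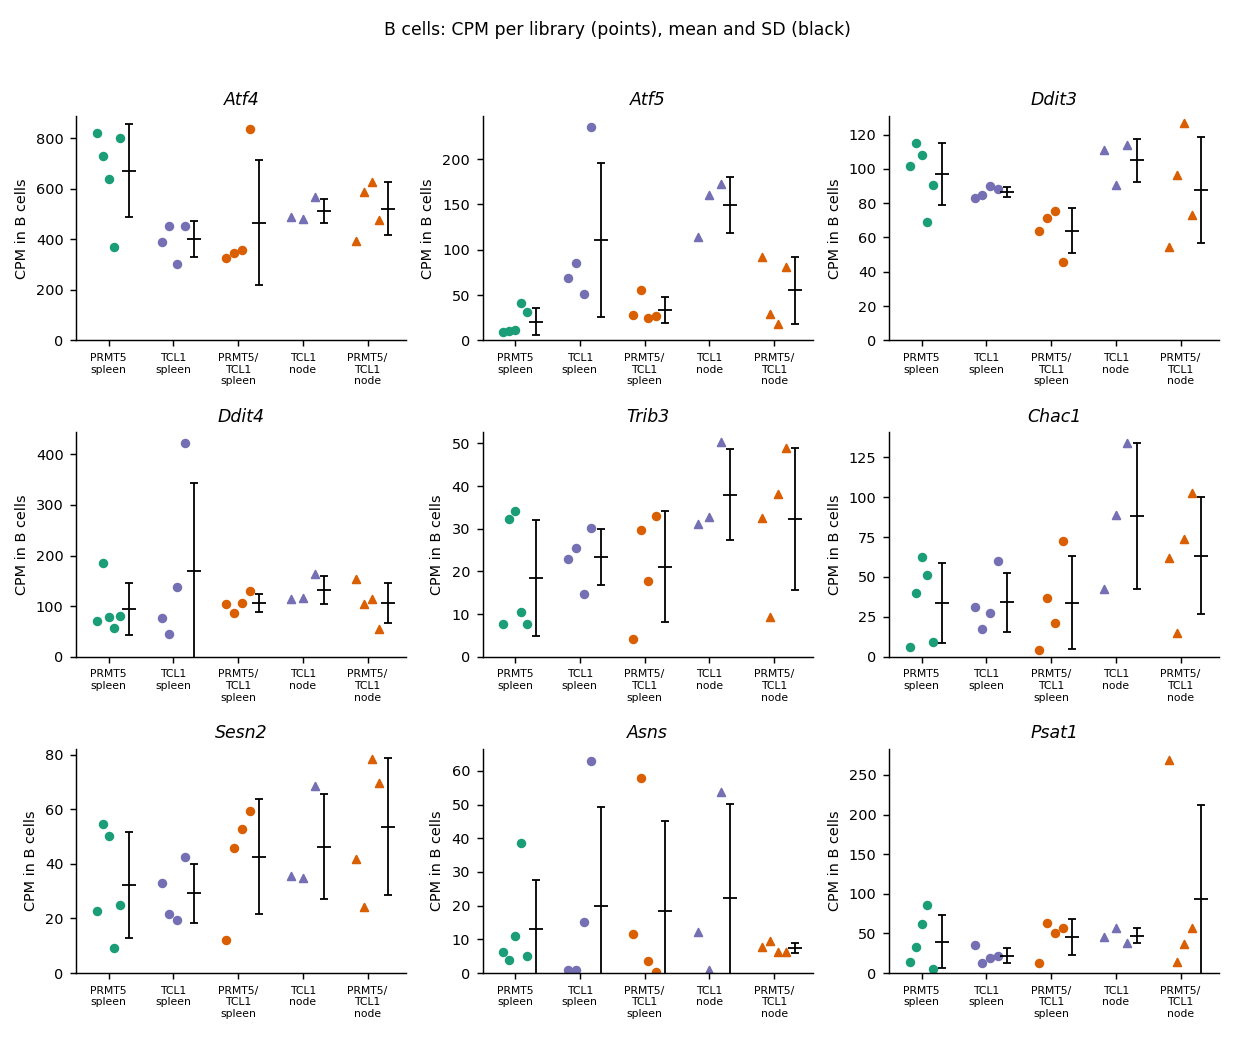
Level of each of the 9 genes in B cells (CPM, linear axis), with 1 point per library in 5 groups and bars for the mean and SD. Atf5 is at 51.3 to 236 CPM in Eµ-TCL1 spleens and 9.19 to 41.1 CPM in Eµ-PRMT5 spleens, while Chac1, Asns and Psat1 spread widely inside groups.

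Among the regulators, Trib3 encodes a pseudokinase that feeds back on ATF4, and Ddit4 and Sesn2 encode inhibitors of the growth kinase mTORC1. In B cells Trib3 ranged from 7.55 to 34.1 CPM in Eµ-PRMT5 spleens, 14.6 to 30.2 CPM in Eµ-TCL1 spleens and 4.12 to 33.0 CPM in Eµ-PRMT5/TCL1 spleens, so the groups overlapped. Sesn2 likewise overlapped, at 9.11 to 54.6, 19.6 to 42.5 and 12.1 to 59.6 CPM in the same order. Ddit4, also known as a glucocorticoid and hypoxia target, was at 57.1 to 184, 44.8 to 422 and 86.6 to 129 CPM, and its 2 highest values belonged to single libraries, Eµ-TCL1 spleen 4 with 422 CPM and Eµ-PRMT5 spleen 2 with 184 CPM.

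Chac1 encodes an enzyme that breaks down glutathione. In B cells it was at 6.26, 39.7, 62.7, 50.9 and 9.20 CPM in Eµ-PRMT5 spleens, at 31.3, 17.2, 27.6 and 60.1 CPM in Eµ-TCL1 spleens and at 4.46, 37.0, 21.1 and 72.8 CPM in Eµ-PRMT5/TCL1 spleens. The 3 group means, 33.8, 34.0 and 33.8 CPM, were alike, and the spread inside each group was large.

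Asns encodes asparagine synthetase and Psat1 an enzyme of serine synthesis. Asns in B cells was at 6.13, 4.00, 11.04, 38.7 and 5.19 CPM in Eµ-PRMT5 spleens, at 0.99, 0.77, 15.2 and 63.0 CPM in Eµ-TCL1 spleens and at 11.7, 57.8, 3.52 and 0.31 CPM in Eµ-PRMT5/TCL1 spleens. The highest and the lowest B cell value over the 13 spleens differed 202-fold, whereas the ratio was 10.7 in T cells and 5.59 in myeloid cells of the spleens used. The extremes rested on 2185 UMIs in Eµ-TCL1 spleen 4 and 6 UMIs in Eµ-PRMT5/TCL1 spleen 4. Eµ-TCL1 spleens alone ran from 0.77 to 63.0 CPM. Psat1 in B cells ranged from 5.66 to 85.8 CPM in Eµ-PRMT5 spleens, 13.2 to 35.2 CPM in Eµ-TCL1 spleens and 12.9 to 62.9 CPM in Eµ-PRMT5/TCL1 spleens, and its highest value was 268 CPM in Eµ-PRMT5/TCL1 node 1, where the other 3 nodes of that group had 14.1 to 57.3 CPM.

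All 9 genes were higher in plasma cells than in B cells of spleens after scaling by library composition, with Chac1 at the top. Chac1 was at 93.5, 725 and 162 CPM in plasma cells of Eµ-PRMT5 spleens 1, 3 and 5, at 169.8, 196 and 307 CPM in Eµ-TCL1 spleens 1, 3 and 4, and at 72.9 and 463 CPM in Eµ-PRMT5/TCL1 spleens 1 and 4. In each of these 8 spleens Chac1 was higher in plasma cells than in B cells. The question was which members differ between classes, and the spleens were fitted together with the mouse as a block, in edgeR's quasi-likelihood test with Benjamini-Hochberg adjustment over all genes at 0.05. All 9 of 9 genes were called higher in plasma cells than in B cells, against 17.7% of 11912 genes tested. The median log2 difference was 1.75 over the 9 genes and −0.14 over all genes.

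Chac1 had the largest difference of the 9, a log2 fold change of 3.99 ± 0.35 (SE; adjusted p = 1.95e-11). Asns followed with 2.81 ± 0.60 (adjusted p = 0.00026) and Atf5 with 2.68 ± 0.33 (adjusted p = 5.24e-08). Psat1 and Ddit4 both differed by 1.75, with SEs of 0.29 and 0.34, Sesn2 by 1.54 ± 0.20 and Trib3 by 1.47 ± 0.25. The smallest differences were those of Ddit3, 0.72 ± 0.14, and of Atf4, 0.60 ± 0.13 (adjusted p = 0.00019).

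For 5 of the 9 genes, most of all Atf4 and Ddit3, the direction in single spleens depended on whether immunoglobulin UMIs were counted in the totals. Immunoglobulin genes made up 24.1 to 56.3% of the UMIs of plasma cells in spleens and 0.685 to 3.56% of those of B cells, and in plain CPM Atf4 was higher in plasma cells in only 3 of 8 spleens, Ddit3 in 4 of 8, Ddit4 in 6 of 8, and Trib3 and Sesn2 in 7 of 8. With immunoglobulin UMIs left out of the totals, all 5 were higher in plasma cells in 8 of 8 spleens. Atf4 in plasma cells was then at 841, 930.0, 903, 714, 483, 671, 586 and 1329 CPM in the order of spleens above. On either scale, Chac1, Atf5 and Psat1 were higher in 8 of 8 and Asns in 7 of 8 spleens.

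**Figure D2:**
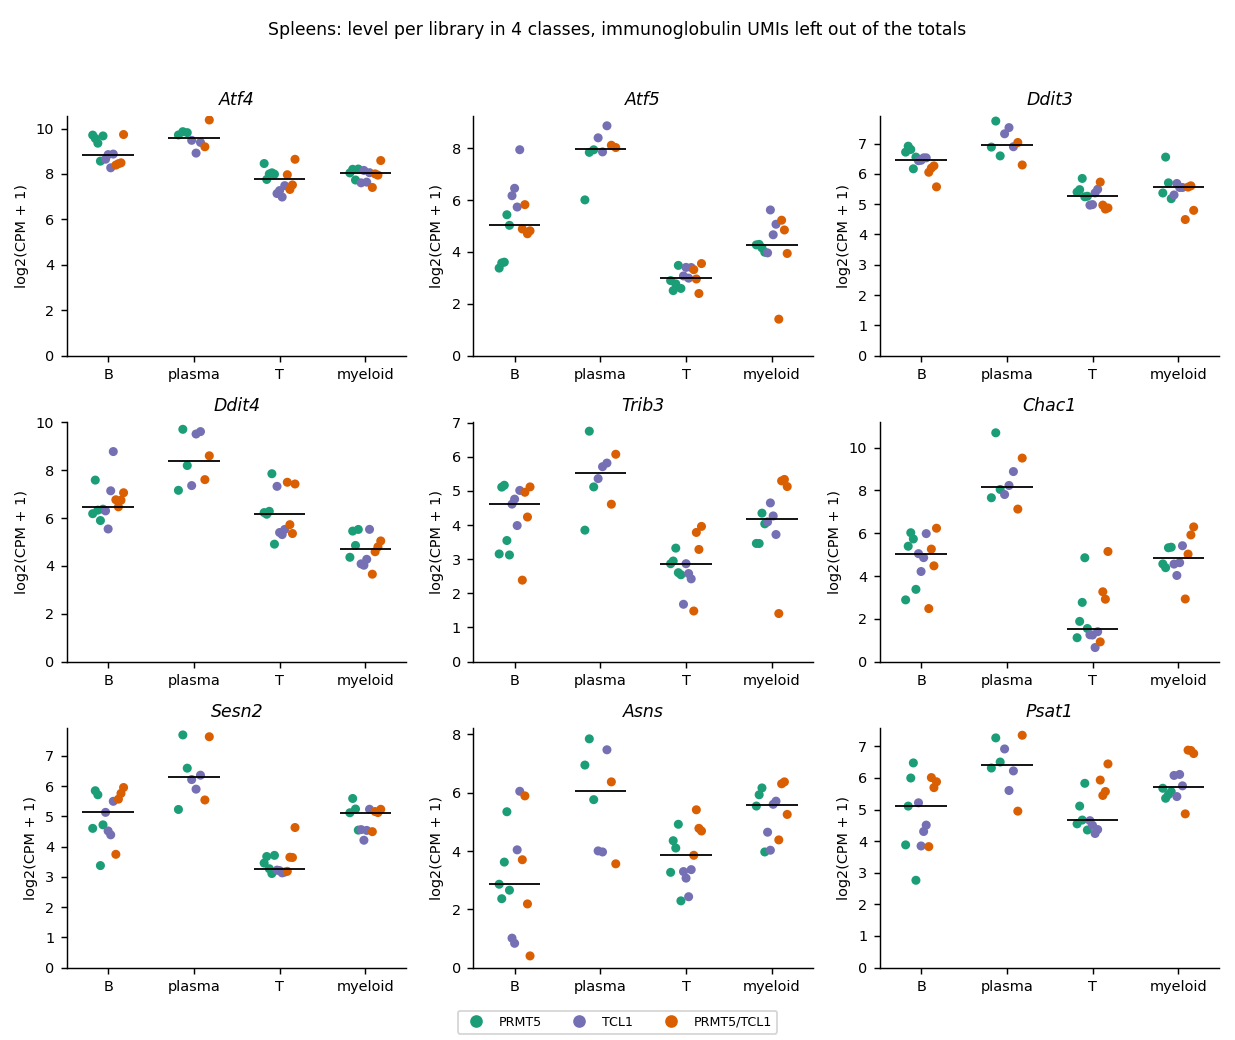
Levels of the 9 genes in B, plasma, T and myeloid cells of spleens, as log2(CPM + 1) with immunoglobulin UMIs left out of the totals, 1 point per library with at least 30 cells of the class. The median of plasma cells is the highest for all 9 genes. In every spleen, T cells lie below B cells for Atf4, Atf5, Ddit3, Trib3, Chac1 and Sesn2.

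The wider pathway was read from fixed lists in the same fit of plasma against B cells. Of 11 other ATF4 transcription factors and effectors tested, 8 were higher in plasma cells and none lower, with a list median of 1.93, among them Herpud1 (2.54), a protein of endoplasmic reticulum degradation, Cebpb (1.93), a C/EBP partner, Eif4ebp1 (1.85) and Cebpg (1.15). Of 13 genes of serine, one-carbon and amino acid synthesis, 9 were higher and 3 lower, with Pycr1 (4.44) and Aldh18a1 (1.32) of proline synthesis, Aldh1l2 (3.50) of the mitochondrial folate cycle and Psph (1.31) of serine synthesis. Of 11 amino acid transporters 5 were higher and 1 lower, including Slc3a2 (3.01) and Slc7a5 (1.97), which pair as an importer of large neutral amino acids, Slc6a9 (2.67) and Slc1a5 (1.22). Of 20 cytosolic tRNA synthetases 11 were higher and 2 lower, with a median of 0.36.

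The eIF2 kinases were called in both directions. Of 4 tested, Eif2ak3, the kinase of the endoplasmic reticulum also called PERK, was higher in plasma cells (1.04) and Eif2ak4, the kinase that senses uncharged tRNA, was lower (−0.89). Of 10 genes of eIF2, eIF2B and its phosphatase, 2 were higher and 2 lower. The higher ones, Ppp1r15a (1.19) and Ppp1r15b (0.68), are both subunits that direct the phosphatase to eIF2. All 16 genes of the ATF6 and XBP1 arms of the unfolded protein response were higher, with a median of 2.76, led by Edem1 (3.69), Sdf2l1 (4.29), Dnajc3 (3.21) and Sel1l (2.99). Other fixed lists had 1 higher and 1 lower of 6 glucocorticoid targets, 4 higher and 1 lower of 9 p53 targets, and 2 higher and 2 lower of 12 immediate early and heat shock genes. Over all genes the shares were 17.7% higher and 24.1% lower, so the counts for the eIF2 kinases, for eIF2, eIF2B and its phosphatase, for glucocorticoid targets and for immediate early and heat shock genes were near or below these shares.

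T cells carried less of most of these RNAs. Atf4 in T cells was at 351, 215, 255, 263 and 253 CPM in Eµ-PRMT5 spleens, at 139.9, 153, 126 and 178 CPM in Eµ-TCL1 spleens and at 249, 159, 182 and 399.6 CPM in Eµ-PRMT5/TCL1 spleens. Each value was below that of B cells in the same spleen. Of the 9 genes 6 were called lower in T cells than in B cells and none higher, against 27.6% of genes called lower.

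The 6 genes called lower in T cells were Chac1 (log2 fold change −2.76 ± 0.33), Atf5 (−2.47 ± 0.31), Sesn2 (−1.62 ± 0.18), Trib3 (−1.56 ± 0.21), Atf4 (−1.19 ± 0.11) and Ddit3 (−1.11 ± 0.12), with adjusted p values between 7.78e-12 and 8.00e-08. Ddit4 (−0.34 ± 0.30), Asns (0.53 ± 0.51) and Psat1 (0.16 ± 0.24) did not pass. The share of cells with at least 1 UMI was compared after each cell was thinned to 1000 UMIs, which is needed because the median cell had 7906 UMIs in B cells and 5118 in T cells. The share with Atf4 was 35.0 ± 10.9% of B cells and 18.2 ± 5.88% of T cells (SD, n = 13 spleens). The share with Chac1 was 2.47 ± 1.65% of B cells and 0.312 ± 0.369% of T cells, and 14.98 ± 7.85% of plasma cells (n = 8). Unthinned shares were 15.1%, 3.37% and 56.0% for Chac1. Free RNA in droplets gives some UMIs to every class, and its part in the T cell share was not tested.

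Fixed lists of the pathway were counted between T and B cells as well, where 27.6% of all genes were called lower and 30.7% higher. In T cells 3 of 4 eIF2 kinases, 6 of 11 other ATF4 factors and effectors, 9 of 13 genes of serine, one-carbon and amino acid synthesis, 7 of 11 amino acid transporters and 15 of 20 tRNA synthetases were lower, and 0, 1, 1, 1 and 1 were higher. Of 10 genes of eIF2, eIF2B and its phosphatase 5 were lower, and of 16 genes of the unfolded protein response 10 were lower and 2 higher. Of 6 glucocorticoid targets 1 was lower and 2 higher, of 9 p53 targets 0 and 6, and of 12 immediate early and heat shock genes 7 and 2. Medians of the first 5 lists lay between −0.77 and −0.40, against 0.04 for all genes.

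Myeloid cells differed from B cells in both directions. Asns was at 45.5, 59.97, 70.4 and 14.6 CPM in myeloid cells of Eµ-PRMT5 spleens 1 to 4, at 24.03, 15.3, 47.5 and 51.2 CPM in Eµ-TCL1 spleens and at 19.8, 78.2, 81.9 and 37.2 CPM in Eµ-PRMT5/TCL1 spleens. It exceeded the B cell value in 10 of 12 spleens. Of the 9 genes 2 were called higher in myeloid cells, Asns (2.17 ± 0.52, adjusted p = 0.0004) and Psat1 (1.13 ± 0.24, adjusted p = 0.00011), against 31.5% of all genes. Another 4 were called lower, against 39.8% of all genes.

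The 4 lower genes were Ddit4 (−2.01 ± 0.32), Atf4 (−0.78 ± 0.11), Ddit3 (−0.76 ± 0.12) and Atf5 (−0.74 ± 0.30, adjusted p = 0.0286). Atf5 was called in 14 of 23 alternative settings, with adjusted p values up to 0.161 (without Eµ-TCL1 spleen 4), and DESeq2 did not call it (adjusted p = 0.0566). Trib3 (0.08 ± 0.21), Chac1 (0.17 ± 0.30) and Sesn2 (0.11 ± 0.17) did not pass. Both counts were near the share of all genes that was called in the same direction.

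The fixed lists were also called in both directions in myeloid cells. Of 11 other ATF4 transcription factors and effectors 5 were higher and 3 lower than in B cells, with Nupr1 (6.09), Cebpb (3.71) and Jdp2 (1.77) among the higher and Herpud1 (−0.83) among the lower. Of 11 amino acid transporters 1 was higher, Slc7a11 (9.34), the cystine importer, whose fold rests on 0 to 6 UMIs in B cells of each spleen, and 8 were lower, among them Slc1a4 (−3.14), Slc38a1 (−1.29) and Slc7a1 (−1.25). Of the 13 other genes of serine, one-carbon and amino acid synthesis, 9 were lower and none was higher, and of 20 tRNA synthetases 13 were lower and none was higher. Of 4 eIF2 kinases 1 was higher, Eif2ak2 (1.14), which senses double-stranded RNA, and 3 were lower, and of 10 genes of eIF2, eIF2B and its phosphatase 1 was higher and 8 lower. Of 16 genes of the unfolded protein response 6 were higher and 4 lower, of 6 glucocorticoid targets 4 and 2, of 9 p53 targets 2 and 6, and of 12 immediate early and heat shock genes 1 and 4. The shares over all genes, 31.5% higher and 39.8% lower, stand beside each of these counts.

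When lymph nodes took the place of spleens, all 9 genes were again called higher in plasma than in B cells, against 12.2% of all genes. In T cells of nodes 8 of 9, all but Asns, were called lower than in B cells, against 28.6% of all genes. For myeloid cells only 3 nodes had at least 30 cells, and 3 genes were called there in place of 6. These 3, Atf4, Atf5 and Ddit4, were lower, against 19.9% of all genes, while Psat1 turned to −0.15 (adjusted p = 0.833) and Asns was not called.

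**Figure D3:**
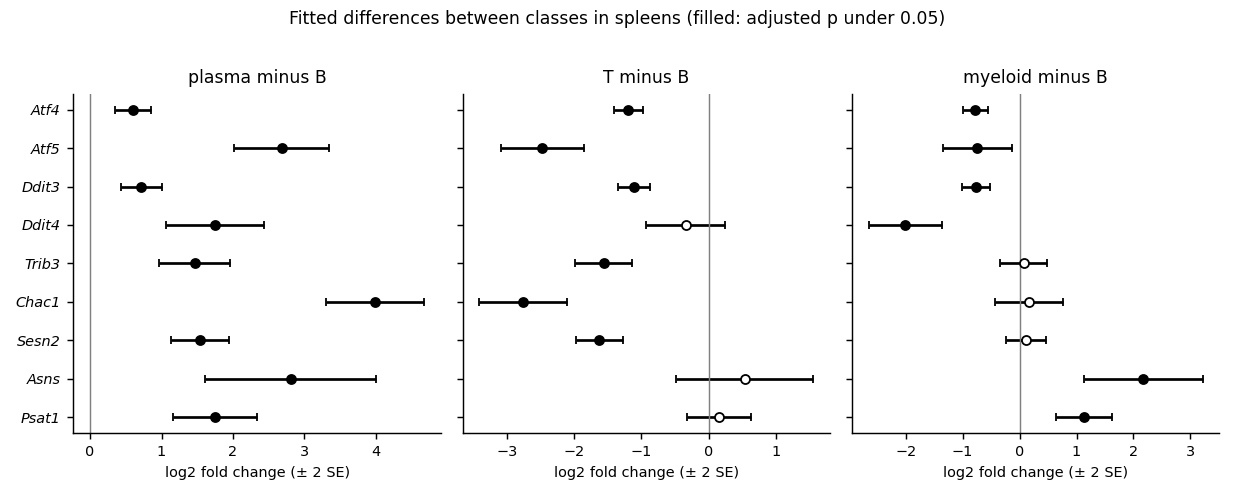
Log2 fold change of each gene in plasma, T and myeloid cells against B cells of spleens, with bars of 2 SE on each side and filled points for genes called at an adjusted p of 0.05. All 9 points for plasma cells lie right of 0, from 0.60 for Atf4 to 3.99 for Chac1.

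The comparisons of genotype asked whether the genes differ in B cells between mice with PRMT5, TCL1 or both. None of the 9 genes was called in any of them by edgeR's quasi-likelihood test. Between Eµ-PRMT5 and Eµ-TCL1 spleens 0 of 9 were called (2 had an unadjusted p under 0.05, against 18.6% of all genes) and 0.00839% of all genes were called. The groups did not overlap for 1 of the 9 genes, Atf5, against 5.05% of all genes. Atf5 in B cells of Eµ-PRMT5 spleens differed from Eµ-TCL1 spleens by −2.34 ± 0.62 on the log2 scale (adjusted p = 0.104). Without Eµ-PRMT5 spleen 4 the difference was −2.99 and was called (adjusted p = 0.0297), DESeq2 called it as well (−2.33, adjusted p = 0.00695), and these fits called 5.47% and 6.71% of all genes. Over 23 alternative settings it ranged from −2.99 to −1.66 with adjusted p values from 0.00695 to 0.316. With sex as a covariate it was −2.19 (adjusted p = 0.296). Apart from Atf4, the other genes ran from −0.98 ± 0.52 for Ddit4 to 0.89 ± 0.70 for Psat1. Without Eµ-PRMT5 spleen 4 these limits moved, with Psat1 at 0.12 ± 0.61, Ddit4 at −0.92 ± 0.56 and Asns at −1.77 ± 1.40.

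Atf4 in B cells differed by 0.64 ± 0.26 between Eµ-PRMT5 and Eµ-TCL1 spleens (adjusted p = 0.217), and by 0.73 ± 0.25 without Eµ-PRMT5 spleen 4 (adjusted p = 0.091). Genes of the immediate early and heat shock response can rise when tissue is dissociated, and whether they did so here was not tested. Of 12 such genes, 0 were called in this comparison by edgeR and 10 had an unadjusted p under 0.05, against 18.6% of all genes. Without Eµ-PRMT5 spleen 4, 5 of the 12 were called higher in Eµ-PRMT5 spleens, and DESeq2 called 9 higher, in the fits that called 5.47% and 6.71% of all genes. Their summed level in B cells was 4390 to 10469 CPM in Eµ-PRMT5 spleens, 2458 to 3787 CPM in Eµ-TCL1 spleens and 2454 to 9625 CPM in Eµ-PRMT5/TCL1 spleens. The highest value of the last group belonged to spleen 4, the library with 834 CPM of Atf4. Of 5 glucocorticoid targets tested 0 were called (1 with an unadjusted p under 0.05), against 2 without that spleen and 1 by DESeq2, all higher in Eµ-PRMT5 spleens. Their summed level was 867, 704, 627, 152 and 1062 CPM in Eµ-PRMT5 spleens 1 to 5, 185 to 455 CPM in Eµ-TCL1 spleens, which spleen 4 of the first group lay below, and 815 CPM in Eµ-PRMT5/TCL1 spleen 4, above 249 to 468 CPM in the other 3 of its group. Other fixed lists also had calls without Eµ-PRMT5 spleen 4 and by DESeq2, beside 5.47% and 6.71% of all genes. In that order, 2 and 3 of 10 genes of eIF2, eIF2B and its phosphatase were higher. So were 1 and 2 of 20 tRNA synthetases and 1 and 2 of 16 genes of the unfolded protein response. Lower were 0 and 2 of 10 other ATF4 factors and effectors and 0 and 1 of 9 p53 targets. The remaining lists had no call. The part of any of these lists in the Atf4 level was not tested.

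**Figure D4:**
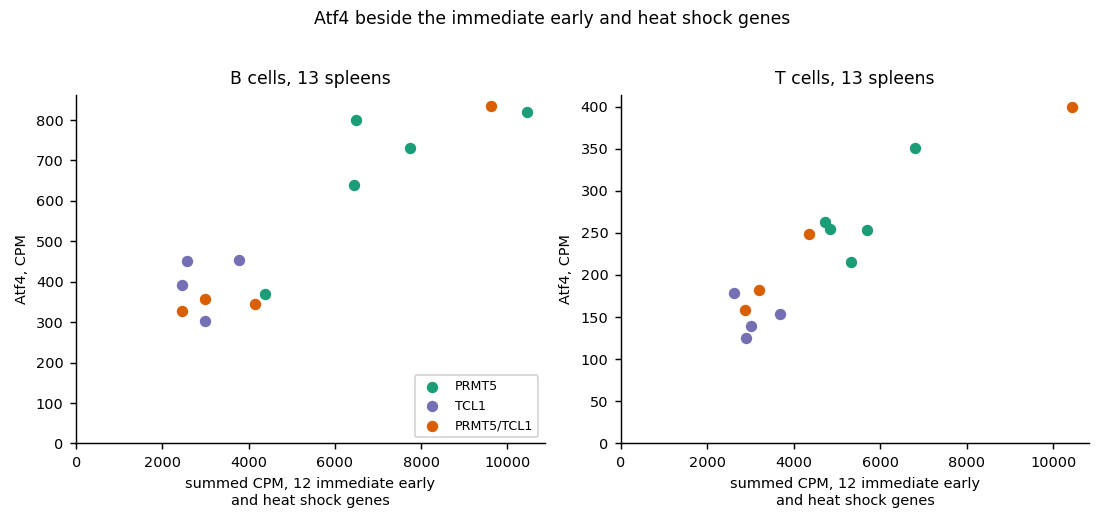
Atf4 against the summed level of 12 immediate early and heat shock genes in the same cells (both in CPM), for B cells (left) and T cells (right) of 13 spleens. There is 1 point per library, coloured by group. In B cells, Eµ-PRMT5 spleen 1 (10469 CPM) and Eµ-PRMT5/TCL1 spleen 4 (9625 CPM) have the highest sums and Atf4 at 820.5 and 834 CPM.

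Eµ-PRMT5/TCL1 spleens were set against the same Eµ-TCL1 and Eµ-PRMT5 spleens, so these comparisons share their samples with the one above. Against Eµ-TCL1 spleens 0 of 9 were called, as were 0% of all genes, with 2 at an unadjusted p under 0.05 (5.22% of all genes), and Ddit3 was the 1 gene without overlap, against 3.4% of all genes. Its difference was −0.49 ± 0.22 (adjusted p = 0.948), and that of Atf5 was −1.78 ± 0.66 (adjusted p = 0.868), with the other 7 genes from −0.78 (Ddit4) to 0.96 (Psat1). Against Eµ-PRMT5 spleens 0 of 9 were called, as were 0% of all genes, with 2 at an unadjusted p under 0.05 (9.24% of all genes), and none was free of overlap, against 1.93% of all genes. There Ddit3 differed by −0.55 ± 0.21 (adjusted p = 0.456) and Atf4 by −0.57 ± 0.26 (adjusted p = 0.535), and the other 7 genes by −0.14 (Chac1) to 0.56 (Atf5). Without Eµ-PRMT5 spleen 4 the same 7 genes ran from 0.145 (Ddit4) to 1.62 (Asns), with Chac1 at 0.25 and Atf5 at 1.21.

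In lymph nodes, the B cell difference between double-transgenic and Eµ-TCL1 samples in Atf5 was −1.38 ± 0.52 (adjusted p = 0.653), and these mice also gave the spleens above. The other 8 genes ran from −1.60 (Asns) to 0.99 (Psat1). Over 17 alternative settings Asns ran from −2.16 to 0.44. Psat1 was at 268 CPM in Eµ-PRMT5/TCL1 node 1 and at 14.1 to 57.3 CPM in the rest of its group. Atf5 was the 1 gene without overlap, against 6.57% of all genes, and 0 of 9 were called, as were 0% of all genes (1 had an unadjusted p under 0.05). DESeq2 called 0 of 9 in this comparison and in both comparisons of Eµ-PRMT5/TCL1 spleens.

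T cells of the same spleens were compared in the same way. Atf4 was at 215 CPM or more in every Eµ-PRMT5 spleen and at 178 CPM or less in every Eµ-TCL1 spleen. The log2 difference was 0.86 ± 0.22 (adjusted p = 0.688 by edgeR, 0.0305 by DESeq2, which called 0.295% of all genes). Atf4 was the 1 of 9 genes without overlap, against 2.2% of all genes. None of the 9 was called by edgeR, against 0.0277% of all genes, and 2 had an unadjusted p under 0.05, against 6.5% of all genes. The other 8 genes differed by −0.44 (Atf5) to 2.37 (Chac1). Of the 12 immediate early and heat shock genes 2 were called higher in T cells of the same Eµ-PRMT5 spleens, Hspa1b (3.31) and Jun (2.02), and the summed list was at 4726 to 6799 CPM there and at 2611 to 3670 CPM in Eµ-TCL1 spleens. Its part in the Atf4 difference was not tested.

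T cells of Eµ-PRMT5/TCL1 spleens were also set against those of the same Eµ-TCL1 spleens, and none of the 9 genes was called. Psat1 was at 60.1, 42.6, 46.5 and 86.0 CPM against 24.1, 21.6, 17.9 and 19.6 CPM, and Asns at 13.4, 41.7, 26.4 and 24.8 CPM against 8.81, 7.39, 4.39 and 9.27 CPM. For both genes the groups did not overlap, which held for 3.3% of all genes. Psat1 differed by 1.34 ± 0.29 and Asns by 1.80 ± 0.51, both with an adjusted p of 0.757, so that neither was called, as was the case for 0% of all genes. An unadjusted p under 0.05 was found for 6 of 9 genes, all of them higher in Eµ-PRMT5/TCL1, against 6.09% of all genes, and DESeq2 called 0 of 9. Without Eµ-PRMT5 spleen 4, which entered the fit through the shared estimate of spread, Psat1 was called (adjusted p = 0.0439), the 1 gene called in that fit (0.00927% of all genes).

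Chac1 in T cells of these groups was at 0.90, 8.61, 6.56 and 34.4 CPM in Eµ-PRMT5/TCL1 spleens and at 0.58 to 1.64 CPM in Eµ-TCL1 spleens, and differed by 3.18 ± 1.00 (adjusted p = 0.757). The other 6 genes ran from −0.30 (Atf5) to 1.04 (Trib3). The highest of these libraries, Eµ-PRMT5/TCL1 spleen 4, also had the highest plasma cell marker sum among T cells of spleens, 89.3 CPM against a median of 23.7 CPM, and an immediate early and heat shock sum of 10442 CPM. What these values contributed was not tested.

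The remaining comparisons of genotype called 0 of 9 genes and 0% of all genes. These were Eµ-PRMT5/TCL1 against Eµ-PRMT5 spleens and against Eµ-TCL1 nodes in T cells (1 gene each with an unadjusted p under 0.05), the 3 spleen comparisons in myeloid cells (0, 0 and 1) and the 4 comparisons in plasma cells (1 in all, Ddit4 in nodes), and DESeq2 also called 0 of 9 in each. In T cells the 9 differences ran from −0.47 (Ddit3) to 0.87 (Asns) against Eµ-PRMT5 spleens and from −0.39 (Trib3) to 1.81 (Chac1) in nodes. In myeloid cells they ran from −0.62 (Atf5) to 0.56 (Ddit4) for Eµ-PRMT5 against Eµ-TCL1, and for Eµ-PRMT5/TCL1 from −0.64 (Ddit4) to 0.95 (Trib3) against Eµ-PRMT5 and from −0.32 (Ddit3) to 0.78 (Trib3) against Eµ-TCL1. In plasma cells the lowest and highest were −1.71 (Asns, Eµ-PRMT5/TCL1 against Eµ-PRMT5) and 1.22 (Asns, Eµ-PRMT5 against Eµ-TCL1). Asns was there at 32.7 to 100 CPM in 3 Eµ-PRMT5 spleens, 9.57 to 115 CPM in 3 Eµ-TCL1 spleens and 6.85 to 43.0 CPM in 2 Eµ-PRMT5/TCL1 spleens. In myeloid cells Psat1 was at 28.03, 117, 116 and 108 CPM in Eµ-PRMT5/TCL1 spleens and at 66.6, 41.4, 67.9 and 52.7 CPM in Eµ-TCL1 spleens, with spleen 1 against the direction of the other 3. In plasma cells Atf5 was at 29.4, 99.6 and 149.8 CPM in 3 Eµ-PRMT5 spleens and at 255, 151 and 302 CPM in 3 Eµ-TCL1 spleens, and the fitted difference was −0.87 ± 0.51 (adjusted p = 0.699). Immunoglobulin UMIs took 38.6 to 56.3% of the first 3 libraries and 24.1 to 34.9% of the others, and with them left out Atf5 was at 63.2, 227.8 and 244.1 CPM against 336, 231 and 464 CPM, so that the groups overlapped.

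Lymph nodes and spleens of the same 7 mice were compared with the mouse as a block. In B cells Chac1 was at 42.4, 89.0 and 134 CPM in Eµ-TCL1 nodes, whose spleens, 1, 2 and 4, had 31.3, 17.2 and 60.1 CPM. It was at 61.8, 15.1, 74.0 and 103 CPM in Eµ-PRMT5/TCL1 nodes, whose spleens, 4, 1, 3 and 2, had 72.8, 4.46, 21.1 and 37.0 CPM. The node was the higher of the pair in 6 of 7 mice, and node 1 of the Eµ-PRMT5/TCL1 group was the exception. The summed immediate early and heat shock genes in B cells were higher in the node of the same 6 mice, for example 7119 against 2995 CPM in the mouse of Eµ-PRMT5/TCL1 node 3, and lower in the same exception, 3529 against 9625 CPM. None of the 12 was called between the tissues in B cells (1 with an unadjusted p under 0.05), and their part in the Chac1 difference was not tested.

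None of the 9 genes was called between node and spleen in B cells, against 0.0528% of all genes, although all 9 fold changes were positive, with a median of 0.48 against 0.01 for all genes. The lowest adjusted p values were those of Chac1 with 1.28 ± 0.27 (adjusted p = 0.132) and Trib3 with 0.66 ± 0.15 (adjusted p = 0.142), and DESeq2 called these 2 genes (adjusted p = 0.00075 and 0.00696) among 2.55% of all genes. An unadjusted p under 0.05 was found for 4 of 9 genes, against 11.1% of all genes. Ddit3 (0.38 ± 0.11, adjusted p = 0.250) was higher in the node in 7 of 7 mice, as were 1.43% of all genes. Chac1, Trib3, Sesn2 and Atf4 were higher in 6 of 7, Atf5 and Psat1 in 5 of 7, and Asns and Ddit4 in 4 of 7. Sesn2, Asns, Atf5 and Psat1 had fold changes of 0.48, 0.49, 0.47 and 0.75, Atf4 0.28 and Ddit4 0.06. Over 16 alternative settings Asns ran from −0.68 to 1.12, so its direction was not settled.

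The difference between tissues was also tested for a difference between the 2 genotypes. No gene was called there, 0 of 9 and 0% of all genes (0 with an unadjusted p under 0.05, 0 of 9 by DESeq2). Its estimates for the 9 genes ran from −0.82 ± 1.61 for Asns to 0.38 ± 0.29 for Trib3.

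**Figure D5:**
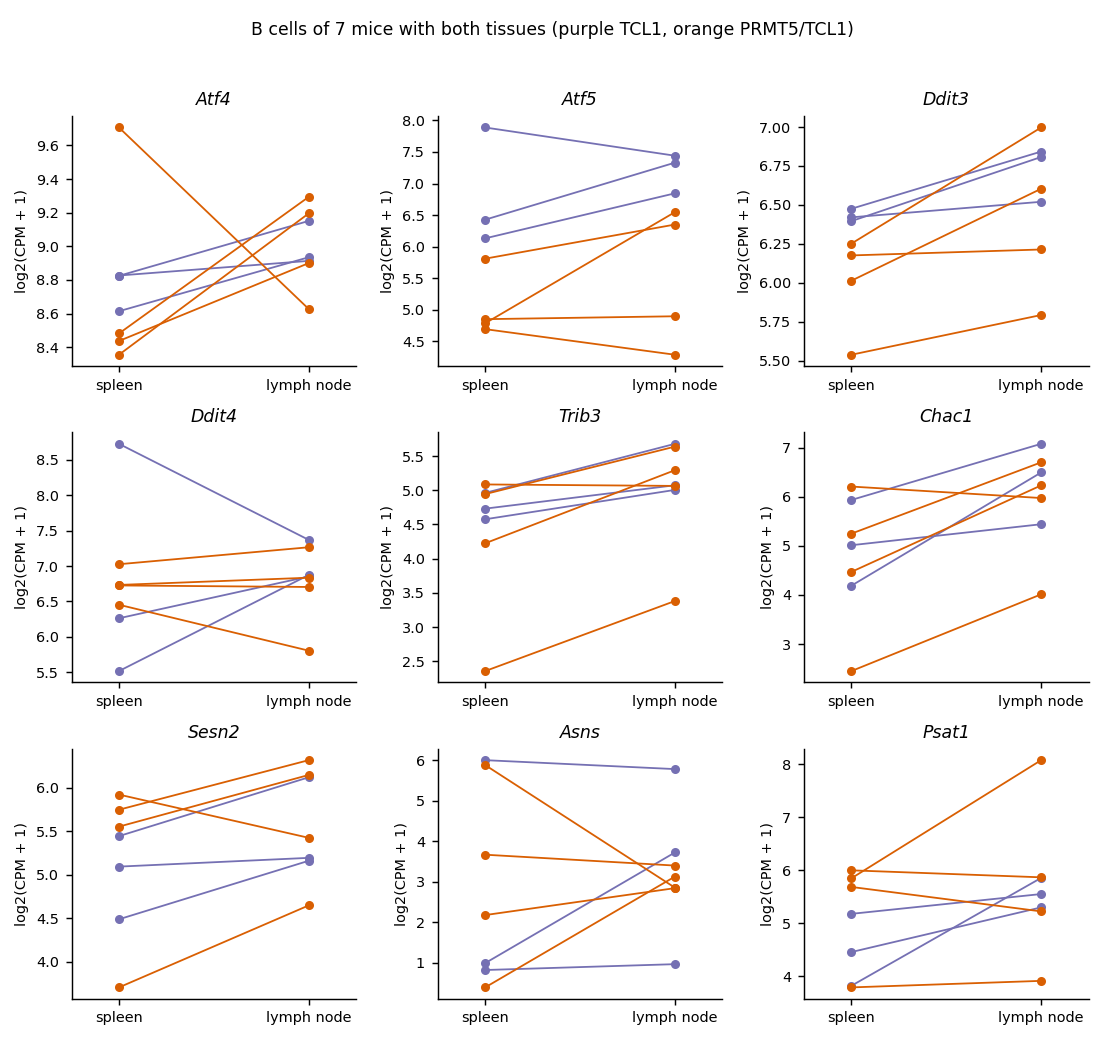
Levels of the 9 genes in B cells of the spleen and the lymph node of the same mouse (log2(CPM + 1)), with a line for each of 7 mice. The lines rise from spleen to node in 7 of 7 mice for Ddit3 and in 6 of 7 for Chac1, Trib3, Sesn2 and Atf4.

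The other classes of the same mice gave fewer pairs. In plasma cells of 3 mice 0 of 9 were called, against 0.066% of all genes, with 3 at an unadjusted p under 0.05 (4.54% of all genes). The largest differences were those of Sesn2 (1.26 ± 0.24, adjusted p = 0.267) and Chac1 (1.20 ± 0.21, adjusted p = 0.200). The other 7 genes ran from 0.11 (Ddit3) to 0.83 (Trib3). Chac1, Sesn2, Atf4, Psat1 and Trib3 were higher in the node in 3 of 3 mice, and Asns, Atf5, Ddit3 and Ddit4 in 2 of 3. The share of all genes higher in 3 of 3 mice was not counted. Of these spleens, Eµ-TCL1 spleen 4 held only 36 plasma cells, against 422 in the node of its mouse. The summed immediate early and heat shock genes were also higher in the node in 3 of 3 mice, with 0 of 12 called (5 with an unadjusted p under 0.05), and their part was not tested. In T cells of 7 mice 0 of 9 were called, against 0.00985% of all genes, with 1 at an unadjusted p under 0.05, and Psat1 had −0.67 ± 0.20 (adjusted p = 0.251), with the other 8 genes from −0.66 (Asns) to 0.41 (Chac1). DESeq2 called 1 of 9 in plasma cells, against 0.0924% of all genes, and 0 of 9 in T cells.

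In myeloid cells of 3 mice 2 of 9 were called, against 1.52% of all genes. Eµ-TCL1 node 3 and Eµ-PRMT5/TCL1 nodes 3 and 4 held 128, 172 and 44 myeloid cells, and the spleens of these mice 331, 395 and 1087. The class pools granulocytes, monocytes and macrophages, and their mix was not compared between the tissues. Chac1 was at 66.4, 137 and 94.0 CPM in Eµ-TCL1 node 3 and Eµ-PRMT5/TCL1 nodes 3 and 4, and at 41.6, 59.6 and 31.6 CPM in the spleens of these mice. It was higher in the node of each mouse, by 1.30 ± 0.22 on the log2 scale (adjusted p = 0.0112). Psat1 went the other way, at 23.2, 24.2 and 80.6 CPM in the nodes and 52.7, 116 and 117 CPM in the spleens, by −1.22 ± 0.27 (adjusted p = 0.0491). The other 7 genes ran from −0.91 (Asns) to 0.72 (Sesn2). Chac1 and Psat1 were not called without the mouse of Eµ-PRMT5/TCL1 node 3 or without the mouse as a block. Chac1 was called in 10 of 12 alternative settings and Psat1 in only 4 of 12, with adjusted p values for Psat1 up to 0.399. Of the 12 immediate early and heat shock genes 4 were called higher in the same nodes, Fosb, Egr1, Dusp1 and Junb. Of 5 glucocorticoid targets 2 were called higher there, Tsc22d3 (1.19) and Sgk1 (0.97). The other fixed lists had 4 calls, all higher in the node: Atf3 (1.39), a stress transcription factor, Ppp1r15a (1.2505), Dnajb9 (1.11) of the unfolded protein response and Mdm2 (0.90), a p53 target. The part of these genes in the Chac1 and Psat1 differences was not tested.

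Likeness to Atf4 from library to library was described over B cells of the spleens. Over B cells of the 13 spleens, the genes whose log2 CPM was most like that of Atf4, among 5636 genes with a mean of at least 20 CPM, were Zfp622 (Pearson r = 0.950), Klf4 (0.943), Oser1 (0.935), Ints12 (0.931) and Mul1 (0.931). Of the 8 other genes of the pathway, 7 reached that mean and had lower coefficients with Atf4, 0.38 for Sesn2, 0.20 for Ddit3, 0.13 for Trib3, 0.02 for Ddit4 and Chac1, −0.20 for Psat1 and −0.52 for Atf5. Asns was below that mean and was not compared. By this coefficient Sesn2 ranked 2590 of the 5636 genes, Ddit3 3291, Trib3 3528, Ddit4 3910, Chac1 3911, Psat1 4532 and Atf5 5264. A coefficient of 0.38 was thus near the middle of the genes compared. These values describe 13 libraries of 3 genotypes, which differed in depth, and all genes of a library share its depth and dissociation.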

How the data were processed

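Cells were captured with the 10x Genomics 3′ kit. The authors deposited 1 matrix of counts per library, holding raw UMIs of every droplet barcode as whole numbers without normalization. The submitters' processing notes name Cell Ranger 2.0.1, Seurat 2.2.1 and GRCm38, while the matrix headers name a later software version. No columns of comparisons were in these files, and no untransgenic library was analysed here. The human transgenes were not checked, since a mouse gene table need not count them.

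The genes and lists were chosen with earlier results of these data known. A barcode was called a cell (87773 in all) if it reached a UMI threshold set per library, had 200 genes or more and no more than 10% of UMIs from mitochondrial genes. The threshold was the 99th percentile over the top 3000 barcodes, divided by 10. Scrublet's own threshold marked too few doublets, so the highest scores were removed at 0.8% per 1000 cells (3542). B, plasma, T and myeloid cells were those with raw counts of fixed marker genes over a minimum for the class and over those of other classes, and counts were summed per library and class with at least 30 cells. Sums were tested with edgeR 4.0.16 (R 4.3.3; TMM, quasi-likelihood, filter on low counts, Benjamini-Hochberg at 0.05). Genotypes were compared within a class and tissue, and tissues and classes with the mouse as a block, because the labels give the mouse of each library. All 9 genes were to be named in every comparison, and those not named singly are given as a range. From each list at most 4 called genes with the lowest adjusted p were named. Alternatives were DESeq2 1.42.0, RLE size factors, no filter, other cell and class rules, immunoglobulin genes left out, sex as a covariate and the replicate number as a block. Each library was also left out in turn, or each mouse in the comparisons of tissues. The fits were tested on simulated data. Mice are the replicates. Depth per library bounds the precision: a gene with few UMIs in a class varies by counting alone. Promoter windows came from RefSeq (GRCm38.p6).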

Additional observations from a re-analysis of the deposited data

Results flagged for a closer look

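Of 99 sets of 4 or 5 libraries tested (a gene in a class of a group), 14 had a sample far from the others by Dixon's criterion. Its rate of about 1 in 20 holds for independent sets of normally distributed values. These sets shared libraries and CPM need not be normal, so the 14 cannot be set against that rate. Eµ-PRMT5 spleen 4, Eµ-PRMT5/TCL1 node 1 and Eµ-PRMT5/TCL1 spleen 1 had 3 flags each. No explanation was tested for any of them.

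In B cells, Atf4 was at 834.5 CPM in Eµ-PRMT5/TCL1 spleen 4, where the other 3 spleens had 326 to 356 CPM. Asns was at 38.75 CPM in Eµ-PRMT5 spleen 4, against 4.00 to 11.04 CPM in the other 4. Atf5 was at 55.04 CPM in Eµ-PRMT5/TCL1 spleen 2, against 24.8 to 27.8 CPM. Ddit4 was at 184.5 CPM in Eµ-PRMT5 spleen 2, against 57.1 to 80.0 CPM. Psat1 was at 268.4 CPM in Eµ-PRMT5/TCL1 node 1 (2291 UMIs in 571 cells), against 14.1 to 57.3 CPM.

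In T cells, Chac1 and Ddit4 were at 27.81 CPM and 228.8 CPM in Eµ-PRMT5 spleen 4, against 1.17 to 5.81 CPM and 29.0 to 76.7 CPM. That library held 56 T cells, with 22 Chac1 UMIs, and its T cells also had the highest B cell marker sum of the spleens, 150.4 CPM. Ddit4 was at 159.1 CPM in Eµ-TCL1 spleen 1, against 38.6 to 45.0 CPM. In the 68 T cells of Eµ-PRMT5/TCL1 node 1, Ddit4 was at 93.93 CPM, against 41.9 to 48.8 CPM, and Asns at 30.46 CPM from 12 UMIs, against 6.53 to 9.68 CPM. Ddit3 was at 51.99 CPM in Eµ-PRMT5/TCL1 spleen 1, against 27.6 to 30.3 CPM.

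In myeloid cells, Ddit4 was at 44.95 CPM in Eµ-TCL1 spleen 4, against 15.3 to 18.3 CPM. In the 65 myeloid cells of Eµ-PRMT5/TCL1 spleen 1, Psat1 was at 28.03 CPM from 17 UMIs, where the others had 108 to 117 CPM, and Trib3 at 1.649 CPM from 1 UMI, where the others had 33.9 to 39.3 CPM.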

How the results depend on the processing

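Of 4005 values of the 9 genes under alternatives, 172 changed sign, and 1 of these had been called. With lymph nodes in place of spleens, an alternative chosen after seeing the data, Psat1 turned to −1.125 in T against B cells (called there, adjusted p = 0.00441) and to −0.1515 in myeloid against B cells (adjusted p = 0.833), and 3 genes were called for myeloid cells. The cause of these changes was not tested.

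DESeq2 called 1 of 9 genes for Eµ-PRMT5 against Eµ-TCL1 in B cells and 1 in T cells, 2 for node against spleen in B cells and 1 in plasma cells. Without the filter on low counts, 1 was called for the tissues in B cells and 2 in plasma cells, where 62 and 98 genes were called over all genes. Stricter marker rules gave 1 in plasma cells. For the tissues in myeloid cells, 1 in place of 2 was called with RLE size factors, a minimum of 10 cells, barcodes from 500 UMIs, doublets kept or stricter marker rules. Leaving out 1 library at a time gave 0 to 1 called for Eµ-PRMT5 against Eµ-TCL1 in B cells (1 without Eµ-PRMT5 spleen 4). For Eµ-PRMT5/TCL1 against Eµ-TCL1 in T cells it gave 0 to 1. Over all genes these fits called 1 to 643 and 0 to 1 genes. For the tissues 1 mouse, with both its libraries, was left out at a time, which gave 0 to 3 in myeloid cells and 0 to 2 in plasma cells. Over all genes those fits called 35 to 679 and 10 to 46 genes.

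The replicate numbers were also used as a block between genotypes. In B cells of the 13 spleens, 5 of 12 pairs with the same number had a correlation of deviations over 0.1 (range −0.0768 to 0.216), and the labels tie the numbers to nothing shared, so the samples were not treated as pairs. As a hint from the data, 7 of 13 libraries correlated best with a library of their own number. Eµ-PRMT5 spleen 5 had no partner of its number and could not do so. The count due to chance was not worked out. With this replicate block 0 of the 9 genes were called in every genotype comparison it could be fitted to, and 48 genes in place of 1 were called over all genes for Eµ-PRMT5 against Eµ-TCL1 in B cells. Without the mouse as a replicate block, 0 of 9 were called for the tissues in myeloid cells, and the class counts stayed at 9, 6 and 6.

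Over all genes, the count called for Eµ-PRMT5 against Eµ-TCL1 in B cells was 1, and rose to 643 without Eµ-PRMT5 spleen 4 and, with DESeq2, to 6.71% of 11915 genes. DESeq2 called 154, 33 and 91 genes in the other B cell comparisons of genotype (spleens against Eµ-PRMT5, spleens against Eµ-TCL1 and nodes). The main fit by edgeR called 0 in each, and up to 18, 1 and 7 with 1 library left out. The count for node against spleen was 6 in B cells (3 to 289), 1 in T cells (0 to 197), 5 in plasma cells (1 to 98) and 133 in myeloid cells (9 to 679). In T cells it was 3 (0 to 32) for Eµ-PRMT5 against Eµ-TCL1, 0 (0 to 11) for Eµ-PRMT5/TCL1 against Eµ-PRMT5 and 0 (0 to 124) in nodes. In plasma cells the main fit by edgeR called 0. Without the filter on low counts edgeR called 205 for Eµ-PRMT5 against Eµ-TCL1 spleens. For Eµ-PRMT5/TCL1 spleens it then called 181 against Eµ-PRMT5 and 94 against Eµ-TCL1. In nodes the highest count was 28, by DESeq2.

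With immunoglobulin UMIs left out, mean CPM in plasma cells of spleens became 807.3 for Atf4, 262.7 for Atf5, 136.5 for Ddit3, 440.2 for Ddit4, 48.72 for Trib3, 498.5 for Chac1, 99.08 for Sesn2, 94.36 for Psat1 and 88.11 for Asns (47.0 with them). Without thinning, the share of B and T cells with a UMI was 83.64% and 55.68% for Atf4, 23.38% and 4.199% for Atf5, 37.24% and 18.24% for Ddit3, 40.53% and 24.54% for Ddit4, 13.11% and 3.319% for Trib3, 15.15% and 3.365% for Chac1, 21.82% and 5.445% for Sesn2, 10.43% and 7.723% for Asns, and 20.59% and 15.11% for Psat1. The comparison of lymph node genotypes in myeloid cells was not run, because 1 Eµ-TCL1 node had at least 30 such cells, and the replicate block could not be fitted to plasma cells of nodes. Low counts limit precision: Asns in B cells rested on 6 UMIs in Eµ-PRMT5/TCL1 spleen 4. The same 2902 B cells held 16027 UMIs of Atf4.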
